A study of Mus musculus with 8 samples.

Results

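The peaks described here are H3K27Ac peaks of the neonatal mouse heart that lie in introns and far from any transcription start. A peak belonged to this class when it was under 10000 bp wide, its centre lay inside a curated RefSeq transcript but in no exon, and the centre was more than 10000 bp from every curated start. The class holds 14547 of the 45987 peaks (31.6%), in the introns of 4199 host genes. The samples were ventricles at postnatal day 7. The Control animals were Arid1a f/f, with floxed *Arid1a* alleles and no Cre, and the *Arid1a cKO* animals were aMHC-Cre;Arid1a f/f, so both groups carried the floxed alleles. Each group had 2 H3K27Ac libraries and 2 input libraries. Since aMHC-Cre is active in cardiomyocytes and whole ventricles were used, chromatin of other heart cells, in which this Cre does not delete *Arid1a*, was in every library.

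Acetylation of histone H3 at lysine 27 marks active enhancers and promoters, and mammalian enhancers often lie inside introns, of the gene they act on or of a neighbour. ARID1A is the DNA-binding subunit of the BAF form of the SWI/SNF complex, which moves and ejects nucleosomes. In the heart, such enhancers are bound by factors such as MEF2, GATA4, NKX2-5, TBX5 and, for metabolic genes, the estrogen-related receptors (ERR).

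The deposited values are concentrations, which give the mean number of normalized reads of a peak in each group on a log2 scale. They are the authors' group means, with 0 columns of single samples, so no error between replicates can be given, depth per library is unknown, and no difference below has a test. The difference of a peak is its concentration in *Arid1a cKO* minus that in Control. A peak is called halved at a difference of −1 or lower and doubled at 1 or higher. Where a group mean was at or under 3 normalized reads, 3 was used as a floor and the fold is a lower bound. Intervals beside shares of peaks are 95% Wilson intervals, which cover counting error over peaks only, and peaks are not replicates. Shares by gene list, position and neighbour are given without an interval, so a small list above or below the class is a description only. In tissue, fewer cells with an acetylated peak and less acetylation per cell cannot be told apart.

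The tissue label was checked with the promoter peaks of marker genes. All 8 ventricular cardiomyocyte markers had one, with 14400 normalized reads summed in Control and 13300 in *Arid1a cKO*. Of the other markers, all 5 endothelial (3970 and 4110 reads), all 5 fibroblast (1420 and 1970 reads) and 4 of 5 smooth muscle genes (1400 and 1820 reads) had a promoter peak, as did 2 of 5 macrophage, 2 of 4 atrial and 1 of 3 epicardial genes, while 0 of 4 liver and 0 of 4 neuron markers had one. The differences ran from −0.43 to 0.13 over the cardiomyocyte markers, from 0.17 to 0.71 over the fibroblast markers and from −0.02 to 1.09 over the smooth muscle markers. The peak over the start of *Arid1a* had 1610 reads in Control and 1660 in *Arid1a cKO*; it does not read the deletion. The gene also held 4 distal intronic peaks, with differences from −0.08 to 0.86.

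Some distal intronic peaks illustrate the range of the class, and each is printed because it holds a MEF2, ERR or TEAD sequence and has a large difference. The 300 bp around the centre are given 5′ to 3′ on the plus strand of GRCm38 (mm10), in lower case with the motif match in capitals. The first lies in intron 6 of *Ppara*, the nuclear receptor that drives fatty acid oxidation genes, at chr15:85792701-85793000, with an ERR site on the minus strand. The peak (85791535 to 85794165) had 122 reads in Control and 6.15 in *Arid1a cKO*, which is 19.8-fold lower.
Ppara: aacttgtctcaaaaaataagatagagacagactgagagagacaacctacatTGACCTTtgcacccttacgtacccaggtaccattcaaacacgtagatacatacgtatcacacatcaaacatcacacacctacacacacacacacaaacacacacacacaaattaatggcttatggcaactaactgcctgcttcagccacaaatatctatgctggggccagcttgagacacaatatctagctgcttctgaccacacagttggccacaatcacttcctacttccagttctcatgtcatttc
The other windows come from peaks that were higher in *Arid1a cKO*. The window chr2:77551754-77552053 in intron 3 of *Zfp385b* holds a MEF2 match, and its peak had 16.6 reads in Control and 189 in *Arid1a cKO* (11.4-fold higher).
Zfp385b: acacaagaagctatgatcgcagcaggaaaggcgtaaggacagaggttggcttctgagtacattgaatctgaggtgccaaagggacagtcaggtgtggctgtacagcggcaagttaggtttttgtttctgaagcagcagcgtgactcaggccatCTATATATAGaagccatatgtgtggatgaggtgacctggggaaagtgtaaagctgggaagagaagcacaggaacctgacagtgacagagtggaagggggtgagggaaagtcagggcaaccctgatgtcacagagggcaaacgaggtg
The window chr12:30203447-30203746 in intron 14 of *Sntg2*, which encodes a syntrophin, holds an ERR site, in a peak with 28.6 and 202 reads (7.06-fold higher).
Sntg2: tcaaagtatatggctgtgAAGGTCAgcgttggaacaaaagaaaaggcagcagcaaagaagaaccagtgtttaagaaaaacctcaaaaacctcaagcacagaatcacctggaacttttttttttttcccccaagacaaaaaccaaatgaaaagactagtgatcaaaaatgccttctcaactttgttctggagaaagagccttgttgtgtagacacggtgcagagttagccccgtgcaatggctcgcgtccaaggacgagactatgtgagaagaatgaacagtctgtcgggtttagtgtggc
The window chr2:126064891-126065190 lies in introns of the overlapping genes *Fam227b* and *Fgf7*, the second of which encodes a fibroblast growth factor. It holds a TEAD match on the minus strand, in a peak with 47.8 and 156 reads (3.27-fold higher).
Fam227b and Fgf7: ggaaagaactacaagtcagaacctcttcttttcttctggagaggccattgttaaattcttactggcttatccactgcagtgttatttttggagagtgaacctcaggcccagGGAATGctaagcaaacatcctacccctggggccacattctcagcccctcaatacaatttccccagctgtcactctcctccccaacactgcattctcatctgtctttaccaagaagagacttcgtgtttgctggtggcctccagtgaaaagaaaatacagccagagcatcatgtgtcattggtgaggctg
The ERR sequence thus occurred in peaks of either direction, and shares over all peaks are given further on.

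Distal intronic peaks were lower in *Arid1a cKO* more often than peaks in general. Of the 14547 peaks, 2262 were halved (15.5%, interval 15.0% to 16.1%), against 10.6% of all peaks. Doubled peaks numbered 717 (4.93%, interval 4.59% to 5.29%), against 4.57% of all peaks, which is close to that background. The median difference was −0.04, against 0.01 over all peaks, and the difference from the 5th to the 95th percentile ran from −2.05 to 0.99. Most of the class, 11568 peaks, stayed inside the limits. The classes nearest in kind had smaller shares of halved peaks, with 8.41% of 8489 intronic peaks within 10 kb of a start and 13.2% of 5110 intergenic peaks over 50 kb from every start. Coding exon peaks were halved in 5.38% of 1969 cases and promoter peaks in 1.28% of 4598. Doubled peaks had another order, with the highest share among intergenic peaks at 7.71%.

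**Figure D1:**
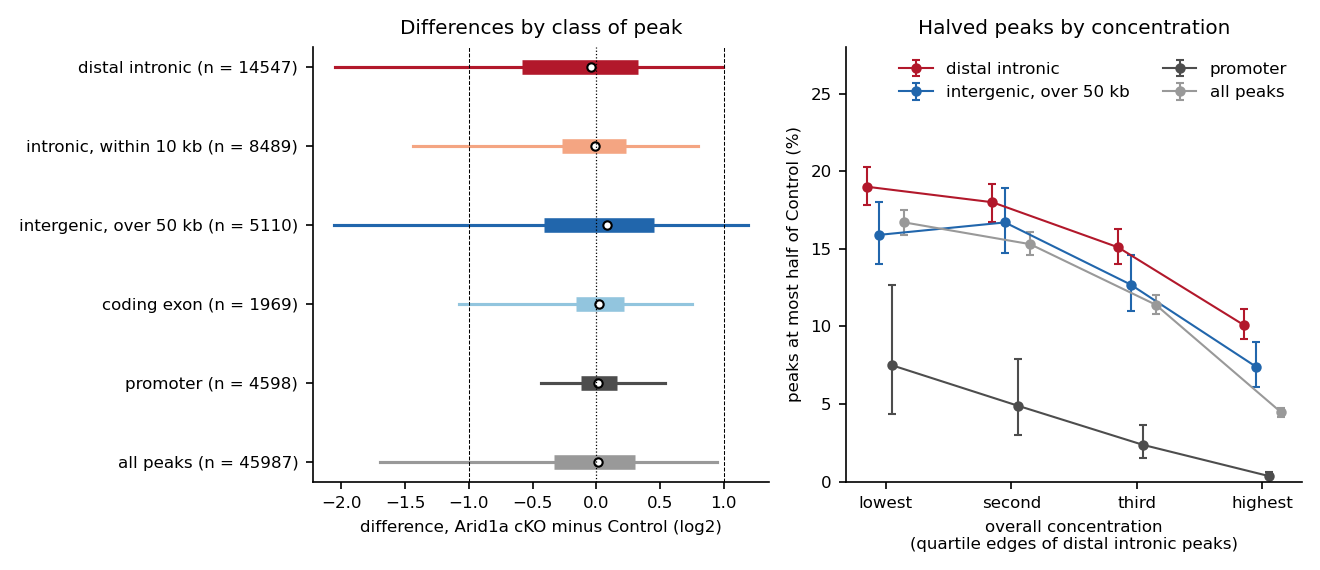
Left, difference of the authors' group means (log2, *Arid1a cKO* minus Control) by class of peak, with the median as a circle, the middle 50% as a thick bar and the 5th to 95th percentile as a thin line; dashed lines stand at −1 and 1. Right, percent of peaks halved by overall concentration, with 95% Wilson intervals over peaks; distal intronic peaks run from 19.0% in the lowest to 10.1% in the highest quartile, and promoters from 7.50% to 0.365%.

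Distal intronic peaks had a median of 29.9 normalized reads, against 44.3 over all peaks. The shares were therefore set out by concentration, at the quartile edges of the class (14.8, 29.9 and 72.0 reads). From the lowest to the highest quartile, 19.0%, 18%, 15.1% and 10.1% of distal intronic peaks were halved, against 16.7%, 15.3%, 11.4% and 4.46% of all peaks within the same edges. The doubled shares were 11.8%, 5.64%, 1.56% and 0.693%. In the highest quartile, 365 distal intronic peaks were halved and 25 were doubled, and the interval of the halved share, 9.17% to 11.1%, lay above the 6.07% to 9% of intergenic and the 0.209% to 0.637% of promoter peaks. Intergenic and distal intronic intervals overlapped in the lowest quartile (14.0% to 18% and 17.8% to 20.3%) and in the next (14.7% to 18.9% and 16.7% to 19.2%). They also overlapped in the third quartile (11.0% to 14.6% and 14.0% to 16.3%). In the lowest quartile the share of 17.8% for intronic peaks nearer to a start had an interval, 15.8% to 20.1%, that overlapped the 17.8% to 20.3% of the distal class. Of the 5933 distal intronic peaks with at least 40 reads, 701 were halved (11.8%, against 6.27% of all such peaks) and 50 doubled.

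The *Arid1a cKO* mean was at or under 3 reads for 312 distal intronic peaks, of which 311 were halved, and the Control mean for 74, of which 72 were doubled. A peak had to occur in 2 or more samples, so these peaks were in the set mostly through the other group. Their calls were thus largely fixed in advance, and they stay in the counts by gene and by list below. Above this floor, differences ran from −4.70 to 3.51. Among peaks of at least 40 reads overall and above the floor in both groups, the lowest was in *Slc35f4*, a solute carrier gene, with 98.4 and 3.78 reads, followed by *Fcrl1*, *Ppara*, *Cog3*, *Man2a1*, *Castor2*, *Fbxo10* and *Gm26760*, whose differences lay between −4.32 and −4.08. The highest among these peaks were in *Zfp385b*, *Tenm4* (13.0 and 110 reads), *Sntg2*, *Kif6*, *Scube2*, *Sytl2*, *Srebf2* and the overlapping *Fam227b* and *Fgf7*, from 3.51 down to 1.71. *Srebf2*, which encodes the transcription factor of cholesterol synthesis genes, held the strongest of these in Control, at 56.1 reads, with 190 in *Arid1a cKO*. The distal intronic peaks strongest in Control, in *Btd*, *Tspan9*, *Ank*, *Frmd5* and *Gm26885*, had 1120 to 1290 reads, and their differences were between −0.63 and 0.32.

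The share of halved peaks varied less with distance or intron number than with concentration. The halved share was 17% at 10 to 20 kb from the nearest start, 14.8% at 20 to 50 kb, 14.9% at 50 to 100 kb and 15.9% beyond. It was 13.8% in first, 14.2% in second and 16.9% in later introns, and 18.3% in introns under 20 kb long against 13.2% to 14.4% in longer ones. By width, the share was highest above 1000 and up to 2000 bp (18.7%) and lowest above 4000 bp (8.47%). It was 13.8% in the quartile of lowest GC content of the central 500 bp and 18% in the quartile of highest. Over chromosomes it ran from 10.4% on chromosome 19 to 19.7% on chromosome 17. Just outside the distance limit, 16.3% of 870 intronic peaks at 8 to 10 kb were halved, and just inside, 17% of 895 at 10 to 12 kb. At the width limit, the shares were 5.94% of the 202 members at least 8000 bp wide and 3.57% of 84 wider peaks, of 10000 to 12000 bp, that met the rest of the rule.

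The nearer a neighbour lay to a halved peak, the more often it was halved too. Where a halved peak had a neighbouring member in the same gene at a gap under 5 kb, that neighbour was halved in 44.1% of 753 cases, and the share was 36.7% at 5 to 20 kb, 30.7% at 20 to 50 kb and 19.8% beyond 50 kb. The halved share was 15.5% in the whole class and 10.6% over all peaks. A pair with both peaks halved counted as 2 cases. The correlation of the differences of neighbours across pairs of peaks was 0.42, 0.37, 0.27 and 0.12 (Pearson) at these gaps, over 2922, 5062, 1851 and 813 pairs that come from the same libraries. Neighbours of opposite call, one halved and one doubled, numbered 17, 32, 18 and 13 pairs. By gene, 1392 hosts held a halved peak and 598 a doubled one, and 172 held both. At least 3 halved peaks lay in 215 hosts. These genes, picked by that count, held 2415 distal intronic peaks, among them 904 of the 2262 halved ones. At least 3 doubled peaks lay in 23 hosts. Of the 965 hosts with at least 5 peaks, 440 had 0 halved peaks, and in 64 every peak had a difference below 0.

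The hosts with the most peaks were *Nfia* (50), *Msi2* (47), *Prkce* (43), *Pakap* (41), *Arhgap26* (41), *Rad51b* (37), *Frmd4a* (34) and *Dlc1* (33), and they differed from each other. *Nfia*, a nuclear factor I gene, had 0 halved and 6 doubled peaks, with a median of 0.18. The doubled peaks were weak in Control, at log2 concentrations of 3.77 or lower, with 1 at the floor. The doubled peaks of *Camk2d*, *Esrrg*, *Cdc14a*, *Flt1* and *Mecom*, named below, were also weak in Control, at 3.53 or lower. In the lowest concentration quartile of the class, 11.8% of peaks were doubled. *Msi2*, an RNA-binding protein gene, had a median of −0.45, with 34 of 47 peaks below 0 but only 6 halved. *Prkce*, which encodes protein kinase C epsilon, had 14 halved peaks of 43 beside a median of −0.18, so its halved peaks stood among many near 0. Its lowest difference above the floor was −3.5, and 1 other halved peak was at the floor in *Arid1a cKO*.

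Among hosts with at least 5 peaks, *Rap1gap2*, which encodes a GTPase-activating protein for RAP1, had the lowest median. Of its 11 peaks, 10 were halved, and 7 of these were at or under the floor in *Arid1a cKO*; with such values set to the floor its median was −3.72. Its strongest peak had 163 reads in Control and was at least 54.4-fold lower. Low medians were also found in *Gramd1b* (4 of 5 halved, median with the floor −2.96), *Gsg1l* (5 of 7, −2.38), *Fras1* (4 of 5, −2.36), *Slit3* (3 of 5, −2.34), *Spsb4* (4 of 6, −1.75 with the floor) and *Man2a1* (3 of 6, −1.71 with the floor). *Man2a1*, a Golgi mannosidase gene, shows how unlike the peaks of 1 gene could be. Its 3 most upstream peaks had 47.5 and 44.6, 53.8 and 33.1, and 212 and 231 reads in Control and *Arid1a cKO*, while a peak 50.7 kb from a start had 179 and 9.99. The highest medians were those of *Fam227b* and *Fgf7* (1.71, over the same 5 peaks), *Sytl2* (1.4) and *Zfp385b* (1.14).

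**Figure D2:**
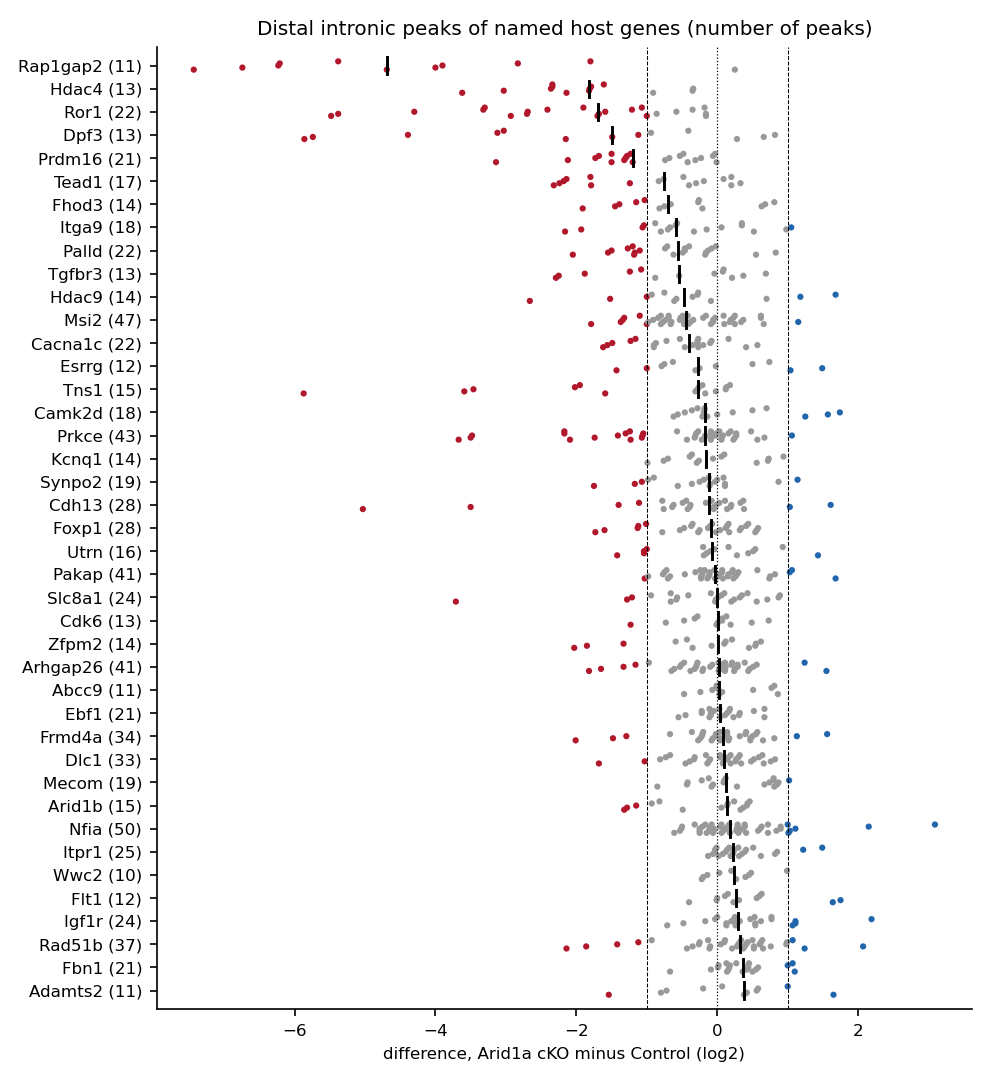
Difference (log2, *Arid1a cKO* minus Control) of each distal intronic peak in 41 named host genes with at least 10 of them, 1 point a peak, red where halved and blue where doubled, with the median of the gene as a black bar. *Rap1gap2*, *Hdac4*, *Ror1*, *Dpf3* and *Prdm16* have medians below −1; differences of peaks at the floor are drawn as the deposited means give them.

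The host genes were then grouped by function, in lists chosen with earlier results of these data known. The shares were set beside the 15.5% halved and 4.93% doubled of the whole class. Genes of muscle structure and excitation had larger halved shares. Of 106 distal intronic peaks in 21 sarcomere and Z-disc genes, 24 were halved (22.6%) and 2 doubled, with a median of −0.38. *Palld*, which encodes the actin-bundling protein palladin, had 8 of 22 halved and 20 below 0. *Fhod3*, a formin gene of sarcomere assembly, had 5 of 14, *Synpo2* 3 of 19, and *Myom1*, which encodes the M-band protein myomesin, 0 of 6 with 5 below 0. Of 61 peaks in ion channel and pump genes, 20 were halved (32.8%) and 3 doubled, in 13 of 19 hosts for the halved. *Kcnq1*, a potassium channel gene, had 0 of 14. Calcium handling genes were close to the whole class, with 22 of 154 halved (14.3%). Among them *Cacna1c*, the L-type calcium channel gene, had 5 of 22 halved and 19 below 0, and *Slc8a1*, the sodium-calcium exchanger gene, 3 of 24. In *Slc8a1*, 1 of the halved peaks was at or under the floor in *Arid1a cKO*. *Itpr1*, an inositol trisphosphate receptor gene, had 0 of 25 halved and 5 below 0, and *Camk2d* had 0 halved and 3 doubled of 18.

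Energy metabolism genes had 14 of 61 peaks halved (23.0%) and a median of −0.27. *Ppargc1a*, a coactivator of mitochondrial genes, had 6 of 7 peaks below 0 and 1 halved, *Esrrg*, itself an ERR gene, 2 halved and 2 doubled of 12, and *Pparg* 0 of 7 halved and 0 below 0. Costamere and cell junction genes had 32 of 181 halved (17.7%), with 6 of 15 in the tensin gene *Tns1*, 4 of 18 in *Itga9*, 4 of 16 in *Utrn* and 4 of 28 in *Cdh13*. At or under the floor in *Arid1a cKO* were 1 of those in *Tns1* and 2 of those in *Cdh13*.

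Genes of cardiac transcription factors and chromatin regulators also had halved shares above the class. In 18 transcription factor hosts, 34 of 155 peaks were halved (21.9%) and 0 were doubled. *Prdm16*, a zinc finger factor, held 11 of the 34 halved peaks, so the halved share of this list rested in part on this gene. All 21 peaks of *Prdm16* were below 0, with a median of −1.20. Its peaks were uneven. The strongest had 820 reads in Control and 815 in *Arid1a cKO*, and the next had 365 and 129. *Foxp1* had 5 of 28 halved and *Zfpm2*, which encodes the GATA cofactor FOG2, 3 of 14. In chromatin regulator genes, 30 of 88 were halved (34.1%) and 3 doubled. Among the 30, 18 lay in *Hdac4* (10 of 13) and *Dpf3* (8 of 13), so the halved share of this list rested largely on these genes. In *Dpf3*, 3 of the halved peaks were at or under the floor in *Arid1a cKO*. *Hdac4* encodes a class II histone deacetylase that binds MEF2 factors, and its strongest peaks had 333 and 292 reads in Control and 65.8 and 84.4 in *Arid1a cKO*. *Dpf3* encodes a subunit of the BAF complex. *Arid1b*, the paralog of *Arid1a*, had 3 of 15 halved and a median of 0.14, and *Hdac9* had 3 halved and 2 doubled of 14.

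Growth factor signalling genes had shares above those of the class in each direction, with 30 of 119 peaks halved (25.2%) and 10 doubled (8.40%). *Ror1*, a receptor for WNT5A, held 16 of the 30, so the halved share of this list rested largely on 1 gene. The doubled share rested largely on *Fgf7* and *Igf1r*, each with 4 of the 10, and the peaks of *Fgf7* also lie in *Fam227b*. All 22 peaks of *Ror1* were below 0, with a median of −1.69, or −1.67 with the floor. Its halved peaks included 5 at or under the floor in *Arid1a cKO*. Along this gene the peak nearest the start had 47.8 and 42.8 reads, a pair of neighbours at 127 and 132 kb from a start had 153 and 23.8, and 191 and 29.4 reads, and a peak at 83.3 kb had 177 and 18 reads. *Igf1r*, the insulin-like growth factor receptor gene, was the reverse, with 0 of 24 halved, 4 doubled and only 4 below 0. *Tgfbr3* had 5 of 13 halved and *Insr* 0 of 9. Hippo pathway genes and YAP targets had 7 of 66 halved (10.6%) and 4 doubled (6.06%). All 7 were in *Tead1*, a DNA-binding partner of YAP, and 2 of them were at or under the floor in *Arid1a cKO*. The strongest distal intronic peak of *Tead1* had 252 reads in Control and 50.6 in *Arid1a cKO*, while *Wwc2*, *Wwtr1* and *Stk4* had 0 halved. Cell cycle genes had 30 distal intronic peaks in 5 hosts, of which 2 were halved, 1 each in *Cdk6* and *Ccnd3*, and 1 doubled, in *Cdc14a*.

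Among genes typical of other heart cells, those of fibroblasts, endothelium and smooth muscle had few halved peaks. The shares were 3.39% of 59 for fibroblast and matrix genes, 4.29% of 70 for endothelial genes and 2.27% of 44 for smooth muscle and pericyte genes, all below the 15.5% of the class and the 10.6% of all peaks. Leukocyte genes had only 10 distal intronic peaks, of which 2 were halved (20%), above both shares. The halved peak in *Runx1*, 1 of these 2, was at or under the floor in *Arid1a cKO*. Fibroblast and matrix genes had 6 doubled (10.2%) and a median of 0.27, with *Fbn1*, the fibrillin gene, at 3 doubled and 2 below 0 of 21 and *Adamts2* at 2 doubled of 11. The doubled peaks of *Fbn1* and *Adamts2* were weak in Control, at log2 concentrations of 4.3 or lower. In the lowest concentration quartile of the class 11.8% of peaks were doubled, and in the next 5.64%. The endothelial gene *Flt1* had 2 doubled of 12 and *Mecom* 1 of 19. The promoters of fibroblast markers were higher in *Arid1a cKO* for 5 of 5 and those of cardiomyocyte markers lower for 6 of 8 genes, and the part of cell composition in these shares was not tested.

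**Figure D3:**
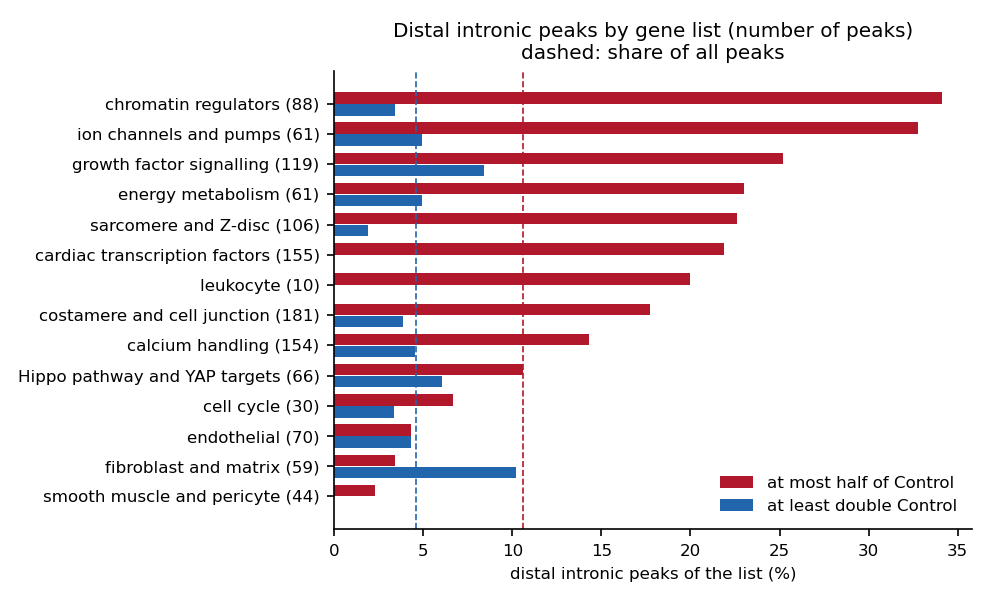
Percent of distal intronic peaks halved (red) and doubled (blue) by list of host genes, with the number of peaks in brackets and the shares of all 45987 peaks as dashed lines (10.6% and 4.57%). Chromatin regulators (34.1%) and ion channels (32.8%) have the highest halved shares and smooth muscle genes (2.27%) the lowest.

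Whether lower acetylation inside introns came with lower acetylation at the start of the same gene was compared next. A peak overlapped a protein-coding start in 3254 hosts. In the 470 of them whose distal intronic median was −1 or lower, 24 start peaks were halved, the median of the start peaks was −0.13, and 335 lay below 0. In the 192 with at least 3 halved distal peaks, 14 start peaks were halved and 166 lay below 0, with a median of −0.24, against −0.01 for the start peaks of all hosts. Over all 3254 hosts, 46 start peaks were halved and 1689 lay below 0. Of the 470 hosts, only 117 held at least 3 distal intronic peaks, and start and distal peaks were not matched for reads. Across the 3254 genes, which share the libraries and are not replicates, the Pearson correlation of start peak and distal median was 0.28 and the Spearman correlation 0.33. Start peaks of *Gramd1b* (96.3 and 83.3 reads) and *Man2a1* (443 and 422) had differences of −0.21 and −0.07. That of *Hdac4* was at −0.44, *Prdm16* at −0.48, *Ror1* at −0.86 and *Tead1* at 0.15. *Rap1gap2* had a lower start peak than these, with 191 reads in Control and 14.7 in *Arid1a cKO* (−3.70). It was not the only named host with a halved start peak. That of *Gsg1l*, another host with a low distal median, was at −1.54, while that of *Spsb4* was at −0.21. The start peak of *Tns1* was at −2.14 beside a distal median of −0.28. For *Fgf7* the Control mean at the start was under the floor and the *Arid1a cKO* mean was 67.6. The host need not be the gene that an intronic peak acts on, and the nearest start belonged to the host for 9867 of the 14547 peaks (67.8%).

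**Figure D4:**
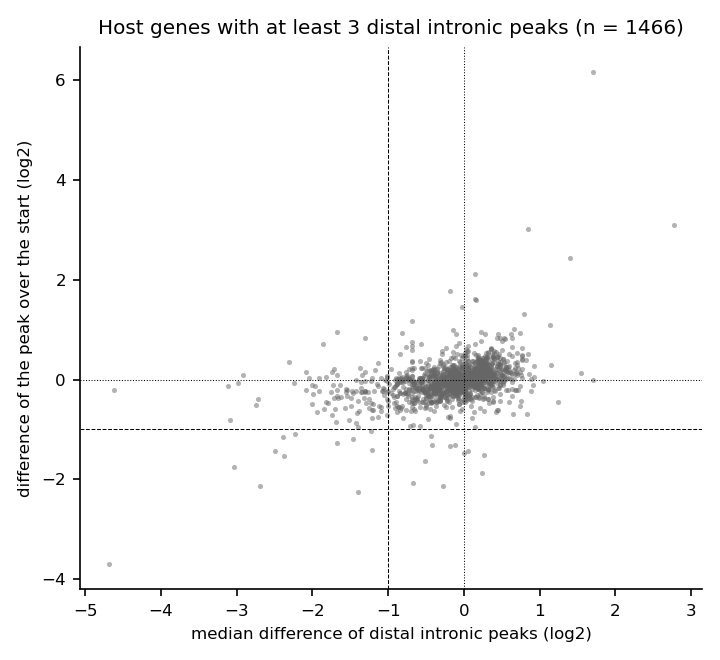
Difference of the peak over the start against the median difference of distal intronic peaks (both log2, *Arid1a cKO* minus Control) for the 1466 host genes with at least 3 such peaks and a start peak, 1 point a gene. Of these, 117 have a distal median of −1 or lower and 23 a start peak at −1 or lower.

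The central 500 bp of each peak were searched on both strands for 12 motifs, and a match is a description of the sequence, not a bound site. Distal intronic peaks had less GC (median 46.8%) than promoter peaks (61.6%) and more repeat-masked sequence (10.6% against 4.8%). The ERR site AAGGTCA was in 17.5% of halved peaks (interval 16.0% to 19.1%), 12% of those inside the limits (11.5% to 12.6%), 13.5% of doubled and 11.3% of all peaks. Among peaks of at least 40 reads the shares were 17.4% and 11.5% with intervals that did not overlap. The MEF2 motif was in 5.22% of halved peaks (4.37% to 6.21%), 3.22% of those inside the limits (2.91% to 3.55%), 1.67% of doubled and 2.58% of all peaks. Among peaks of at least 40 reads, however, MEF2 shares were 4.14%, 3.96% and 4% with overlapping intervals. The shares of halved peaks and of those inside the limits were 5.63% and 3.54% at an overall mean of at least 20 reads, and 5.18% and 4.09% at a Control mean of at least 40. Read the other way, 23.5% of the 502 peaks with a MEF2 match were halved against 15.3% of the rest, and 21.0% of the 1884 with an ERR site against 14.7%. In the quartile of highest GC content, 28.5% of 453 peaks with an ERR site were halved against 16.4% without, and in the next quartile 17% against 15.7%, so this contrast was uneven.

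Motifs of other factors were compared in the same way. NKX2-5 (CAAGTG) was in 32.3% of halved peaks and 28.3% of those inside the limits, MEIS (TGACAG) in 40.5% and 35.9%, and the ZEB E-box (CAGGTG) in 30.1% and 26.5%. Among peaks of at least 40 reads, the MEIS shares were 42.1% (38.5% to 45.8%) and 35.4% (34.1% to 36.7%), while those of NKX2-5, 29.5% and 27.7%, and of ZEB, 30.8% and 26.9%, had overlapping intervals. The sequence AGATAA of GATA factors, at 26.0% and 26.1%, had overlapping intervals in halved peaks and those inside the limits. The same held for the TEAD sequence, CATTCC, at 28.9% and 28.7%. TEAD was in 31.1% of doubled peaks (27.8% to 34.6%), which also overlapped. AP-1 (TGANTCA) was less frequent in halved peaks, at 14.0% (12.6% to 15.5%) against 17.1% (16.4% to 17.8%). Among peaks of at least 40 reads, the AP-1 shares were 13.1% (10.8% to 15.8%) and 16.8% (15.8% to 17.8%), with intervals that met. In the quartile of highest GC content, 18.5% of peaks with an AP-1 match were halved against 17.9% without. The halved share was lower with a match in the other GC quartiles. NRF1, a factor of CpG-rich promoters, was in 3.38% of all peaks and in 48 distal intronic peaks, of which 2 were halved (4.17%, interval 1.15% to 14.0%). Over all peaks the shares were 25.7% for NKX2-5, 33.0% for MEIS, 28% for ZEB, 21.5% for GATA, 26.4% for TEAD and 14.4% for AP-1. With and without a match, 17.6% and 15.4% of peaks were halved for the MYC E-box (CACGTG), 16.5% and 15.3% for TBX (AGGTGT) and 16% and 15.5% for SRF CArG.

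**Figure D5:**
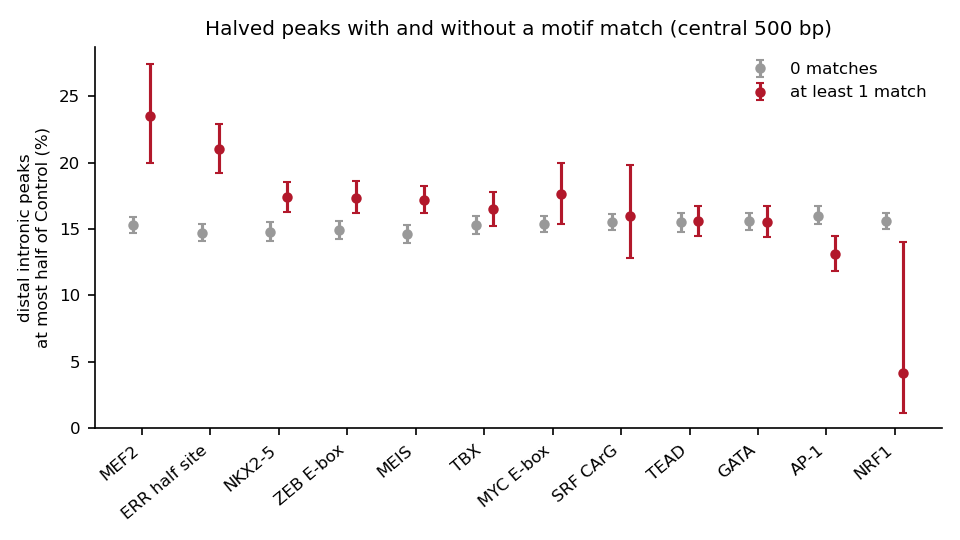
Percent of distal intronic peaks halved among those with 0 matches (grey) and at least 1 match (red) to each of the 12 motifs in the central 500 bp, with 95% Wilson intervals over peaks. MEF2 (23.5% against 15.3%) and the ERR site (21.0% against 14.7%) lie higher with a match, and AP-1 (13.1% against 16.0%) and NRF1 (4.17% of 48 peaks against 15.6%) lie lower.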

How the data were processed

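H3K27Ac ChIP-Seq was made from ventricles of 2 Control and 2 *Arid1a cKO* animals at postnatal day 7, with 1 input library each, grouped by the genotype and antibody labels. The authors aligned reads to mm10 by BWA 0.7.17-r1188. Peak calling used HOMER (version 4.10 in the methods, 4.11 in the submitters' notes) with all inputs merged, and a peak had to occur in 2 or more samples. The authors compared the groups by DiffBind 2.12.0 and DESeq2 1.24.0. The deposited values are log2 mean normalized read counts per peak and group; how libraries were scaled is not given in the sources used here. Another 3 columns hold the authors' fold change, p-value and FDR and were not used. There are 0 per-sample columns, so no test was made, and depth per sample is unknown.

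Peaks were placed on curated RefSeq transcripts of GRCm38; 7 peaks on unplaced sequences got no class. Host genes were those with the peak centre in an intron, and a peak in several genes (179) counted for each. Named were the 8 peaks with the lowest and highest difference at 40 or more reads, the 5 strongest in Control, the 8 hosts with most peaks, the hosts with extreme medians, and up to 4 hosts per list. Some hosts that this rule names are not reported here. The printable sequence in *Gm26760* was left out as 70.2% of its central 500 bp is repeat-masked. Members and lists were chosen with earlier results of these data known. Using peaks over a start, limits of 40 reads, and all alternatives for the ERR site were chosen after seeing the data. Classification and motif counts were tested on simulated data. Python 3.11.15, numpy 2.4.6, scipy 1.17.1, pandas 2.3.3 and matplotlib 3.10.9 were used.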

Additional observations from a re-analysis of the deposited data

How the results depend on the processing

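The number of distal intronic peaks called depended on the limit and on weak peaks. At a limit of 1.5-fold, 3637 were lower and 1917 higher in *Arid1a cKO*, with 407 genes holding at least 3 lower peaks. At 3-fold, these were 1168, 206 and 75. With only peaks of at least 20 reads, they were 1279, 172 and 94, and with at least 40 reads, 701, 50 and 37. The halved share stayed above that of all peaks under each of these limits (25% against 17.3%, 8.03% against 5.60%, 13.7% against 8.29% and 11.8% against 6.27%). The 7 other alternatives, on centring, the floor, the sex chromosomes, distance, predicted starts, exon overlap and width, moved none of the 3 counts by over 1.5 times.

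The MEF2 share of halved peaks was 3.49% in the central 300 bp, 7.69% in 1000 bp, 10.7% in the whole peak and 4.14% at 40 or more reads, against 1.95%, 5.14%, 8.51% and 3.96% of peaks inside the limits. The ERR site share, for which all alternatives were chosen after seeing the data, was 10.8%, 29.0% and 40.5% in the same windows, 15.3% without repeat-masked matches and 19.3% at 3-fold, against 7.56%, 21.4%, 37.1%, 10.3% and 12.4%. A wider window holds any motif more often. Promoter windows gave 5.35%, 4.87% and 5.11% of promoters halved in genes with a distal median of −1 or lower. Over all hosts with a promoter peak in the same windows, 16 of 1145, 41 of 2708 and 46 of 3254 were halved, which are smaller shares.

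No paired analysis was possible because the deposited table holds group means only, and for the same reason no replicate was left out in turn. The depth per library is unknown, and a 2-fold difference of a single weak peak has no error to be set against.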
